A study of Homo sapiens with 12 samples.

Results

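The transcripts followed were those of 10 androgen-regulated genes of the prostate, KLK2, KLK3, KLK4, TMPRSS2, FKBP5, SLC45A3, STEAP2, PMEPA1, ABCC4 and TARP. They were taken by their symbols from the expression tables, and all 10 of 10 were listed among the 13951 genes tested. The RNA came from CWR22Rv1, a human prostate carcinoma line derived from a CWR22 xenograft that had relapsed after castration of its host. The line's 4 derivatives were sequenced as 3 libraries each, 12 in all. Control cells carried Cas9 and received no guide RNA. LV-MEIS1 cells carried the homeobox factor MEIS1 on a lentivirus, and the sources used here do not describe Cas9 in them. HOXB13ko cells carried Cas9, had been cut by CRISPR near the N-terminus of HOXB13, another homeobox factor, and were a pool of recombined clones. HOXB13ko-LV-MEIS1 cells were that pool after infection with the MEIS1 lentivirus. All lines were kept in RPMI with serum and puromycin and were harvested 48 h after seeding. The methods describe Cas9 delivery by a transposon, while the study elsewhere calls its Cas9 control LV-Control, so whether the Control cells met a virus is not settled by the sources used here. Androgen was neither added nor withdrawn, so the values are levels in serum-grown cells and not responses to hormone. The comparisons asked how MEIS1 changed transcript levels with HOXB13 intact and with HOXB13 targeted.

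In luminal cells of the prostate, androgens switch on a programme of secretory genes through androgen response elements in promoters and enhancers, often at chromatin opened by FOXA1 and shared with HOXB13. The kallikreins KLK2, KLK3 (prostate-specific antigen) and KLK4 are serine proteases secreted under this control, and TMPRSS2 is a membrane-bound serine protease. FKBP5 is a co-chaperone of steroid receptors, PMEPA1 is a membrane adaptor that restrains TGF-beta signalling, SLC45A3 (prostein) and ABCC4 are transporters, STEAP2 is a metalloreductase, and TARP is a transcript of the T cell receptor gamma constant region that prostate cells make.

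The promoter windows of KLK3, KLK2 and SLC45A3 are shown because the first and second hold a match to an androgen response element and answered MEIS1 to different degrees, while SLC45A3 had the largest fall of the 10 genes in LV-MEIS1 against Control. Each window runs from 250 bases before to 50 bases after the RefSeq start site and is written 5′ to 3′ on the strand of the gene. Capitals mark a loosened androgen response element (GNACANNNNGTNCT, chosen so that it covers the known KLK3 element) and the shorter AGAACA motif that begins the classical element, searched on both strands, which overlap each other in the KLK3 window. The windows are from the RefSeq table for GRCh38.p14, at chr19:50854665-50854964 on the plus strand for KLK3, chr19:50873189-50873488 on the plus strand for KLK2 and chr1:205680460-205680759 on the minus strand for SLC45A3.
KLK3: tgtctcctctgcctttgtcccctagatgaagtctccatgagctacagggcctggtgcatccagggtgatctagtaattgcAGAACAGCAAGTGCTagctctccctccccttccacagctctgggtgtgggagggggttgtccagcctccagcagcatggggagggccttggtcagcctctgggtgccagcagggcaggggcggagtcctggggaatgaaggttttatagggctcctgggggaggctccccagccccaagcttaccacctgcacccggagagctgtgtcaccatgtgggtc
KLK2: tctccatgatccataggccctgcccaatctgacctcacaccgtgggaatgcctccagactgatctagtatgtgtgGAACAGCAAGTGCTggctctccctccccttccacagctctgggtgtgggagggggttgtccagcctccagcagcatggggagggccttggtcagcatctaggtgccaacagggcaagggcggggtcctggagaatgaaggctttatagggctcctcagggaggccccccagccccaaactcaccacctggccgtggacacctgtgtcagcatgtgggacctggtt
SLC45A3: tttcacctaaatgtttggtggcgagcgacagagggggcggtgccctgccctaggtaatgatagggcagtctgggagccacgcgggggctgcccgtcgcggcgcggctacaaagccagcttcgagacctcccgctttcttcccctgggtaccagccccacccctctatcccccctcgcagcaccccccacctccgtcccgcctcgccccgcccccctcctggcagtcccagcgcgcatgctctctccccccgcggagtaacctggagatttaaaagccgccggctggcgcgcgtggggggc

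Of all 35116 windows in that table, 0.701% held the loosened element and 14.8% held AGAACA. Among the 14 windows of the 8 genes with an entry, the loosened element was found in the KLK3 window from position -169 and in the KLK2 window from position -175, with the same letters in both. AGAACA was found there in KLK3 and not in KLK2. With KLK2 shifted by 6 bases against KLK3, 225 of 294 letters were identical (76.5%). AGAACA also occurred in 1 FKBP5 window and 2 PMEPA1 windows. The MEIS core TGACAG was found in 1 FKBP5 window (15.8% of all windows hold it), and the HOX core CAATAAA in 1 FKBP5 window and 2 times in 1 STEAP2 window (4% of all windows). A match of letters is no evidence of binding, and distal enhancers were outside the windows. No window was at hand for TMPRSS2 and TARP.

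The genes lie on 7 chromosomes in the GENCODE 44 annotation of GRCh38. KLK3 (chr19:50854915-50860764, plus strand), KLK2 (chr19:50861568-50880567, plus) and KLK4 (chr19:50906351-50911395, minus) sit in the kallikrein cluster. STEAP2 (chr7:90167590-90238137, plus) and TARP (chr7:38259643-38273636, minus) share a chromosome but not a region. The others are TMPRSS2 (chr21:41464300-41531116, minus), FKBP5 (chr6:35573585-35728583, minus), SLC45A3 (chr1:205657851-205680509, minus), PMEPA1 (chr20:57648392-57711536, minus) and ABCC4 (chr13:95019835-95301475, minus).

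Reads were assigned to transcripts without use of strand, so a gene that shares sequence or overlaps another may carry reads of its partner. For 9 of the 10 genes, at least 96.1% of the 31-base words in the canonical transcript occurred in no other annotated gene. KLK2 and KLK3, close relatives, shared 2% of KLK2's words and 3.91% of KLK3's. TARP was the exception, with 3.04% of its words in no other gene, 94.9% shared with TRGC1 and 62.3% with TRGC2, the constant regions of the T cell receptor gamma chain. None of 16 genes of that locus was listed separately, so the TARP values may include reads of these constant regions. Which annotated gene the TARP values stand for could not be settled. None of 8 T cell markers was listed either. Opposite TMPRSS2 lies MX1 (2.32 to 6.62 CPM over the 12 libraries), and opposite PMEPA1 lies NKILA (1.99 to 8.03 CPM).

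The deposited unit was CPM, a read count scaled to a common library size. Depth read from the steps between low values was 17100000 to 28600000 reads per library, so that 3 reads were worth 0.105 to 0.175 CPM, and all 10 genes were above 1 CPM in every library. Within-group correlations of log2 CPM over genes were 0.99 to 0.995, and the highest between libraries of different groups was 0.994. MEIS1 was listed at 4.05 to 4.45 CPM in Control, 45.8 to 49.6 in LV-MEIS1, 3.42 to 3.65 in HOXB13ko and 29.3 to 30.1 in HOXB13ko-LV-MEIS1, and the lower MEIS1 level in the last group than in LV-MEIS1 moves with every contrast between those lines. The part of that gap in the results was not tested. HOXB13 mRNA went against a loss of the transcript, with 185 to 215 CPM in Control, 150 to 152 in LV-MEIS1, 307 to 347 in the libraries labelled HOXB13ko and 326 to 375 in those labelled HOXB13ko-LV-MEIS1. No value here measures HOXB13 protein. The study reports the loss of the protein from western blots, made for each clone of the pool. The luminal markers KRT8, KRT18, EPCAM and CDH1 (4 of 4 listed) summed to 1080 to 1190 CPM in Control, 1100 to 1150 in LV-MEIS1, 1050 to 1110 in HOXB13ko and 1080 to 1200 in HOXB13ko-LV-MEIS1, overlapping ranges. The sums hide opposite moves by eBayes in HOXB13ko against Control. There KRT8 was lower (log2 fold change -0.42), EPCAM (0.16) and CDH1 (0.19) were higher, and KRT18 was not called. CDH1 was also higher in LV-MEIS1 (0.17). None of these differences passed treat. Of the basal markers 1 of 5 was listed, and of the neuroendocrine markers 3 of 7, among them CHGB and SYP, which were below Control in every other group. The 1 listed basal marker, ITGA6, was higher in HOXB13ko-LV-MEIS1 than in LV-MEIS1 (log2 fold change 1.33 ± 0.10, treat adjusted p = 7.1e-05). CHGB and SYP fell in LV-MEIS1 (log2 fold changes -3.14 and -2.91) and in HOXB13ko (-2.14 and -1.91). ENO2, the other listed neuroendocrine marker and the most abundant of them (187 CPM on average in Control), changed little. It was lower by eBayes only, at -0.2 in LV-MEIS1 and -0.16 in HOXB13ko. The stromal markers (4 of 6 listed) summed to between 34.9 and 44.7 CPM in all libraries, but they moved in opposite directions in LV-MEIS1. COL1A1 rose 2.22-fold (treat adjusted p = 0.00025), VIM fell 3.11-fold (0.00025), and PDGFRB (-1.28) and ACTA2 (-0.62) were lower by eBayes only. Against LV-MEIS1, HOXB13ko-LV-MEIS1 had lower COL1A1 (-0.98) and higher PDGFRB (1.30) and ACTA2 (1.19) by treat. The part of these markers' changes in the results was not tested. In bulk RNA, fewer cells with a transcript and less of it per cell cannot be told apart.

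**Figure D1:**
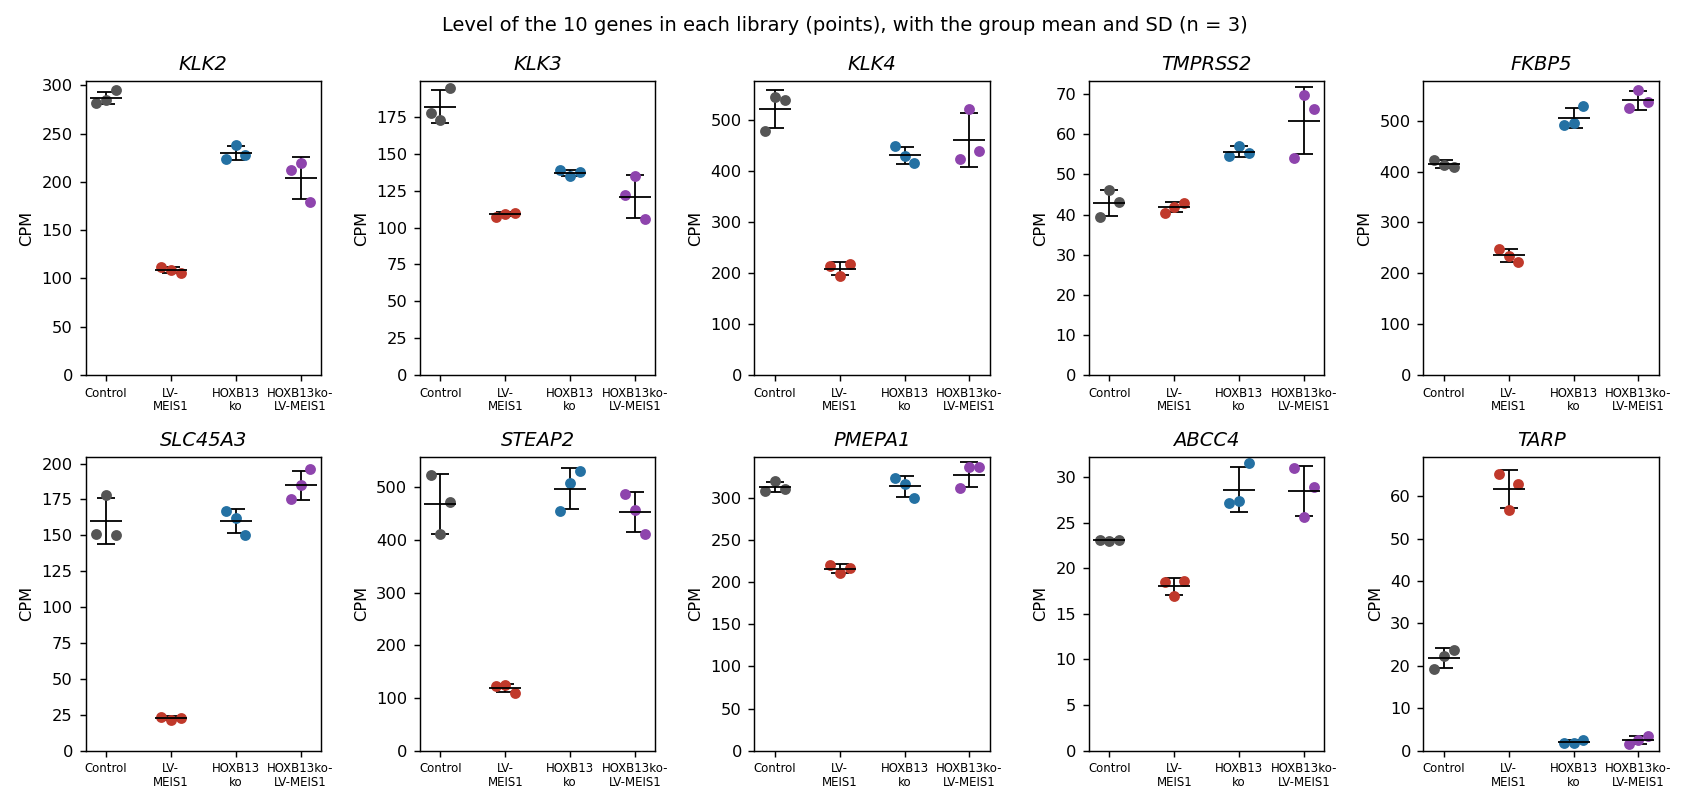
Level of each of the 10 genes in CPM (linear axis from 0) in the 12 libraries. Points are libraries, horizontal bars are group means and error bars are SDs (n = 3 per group). The LV-MEIS1 libraries are the lowest of all 12 for SLC45A3, STEAP2, KLK2, KLK4, FKBP5, PMEPA1 and ABCC4, and the highest for TARP.

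Divided by the length of the canonical transcript, KLK4 was the most abundant of the 10 in Control, at 369 ± 26.3 CPM per kb (SD, n = 3). KLK3 (124 ± 7.58), FKBP5 (111 ± 2.01) and KLK2 (102 ± 2.33) followed on the same per-length scale. STEAP2 (67.1 ± 8.13), PMEPA1 (63.3 ± 1.24) and SLC45A3 (47.1 ± 4.66) formed a middle set, TARP (21.5 ± 2.33) and TMPRSS2 (12.4 ± 0.964) were lower, and ABCC4 was at 3.94 ± 0.0096 CPM per kb. These figures take one transcript length per gene and so depend on which isoforms the cells made.

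In LV-MEIS1 cells, 5 of the 10 genes fell against Control and 1 rose. SLC45A3 fell 6.95-fold, STEAP2 3.91-fold, KLK2 2.63-fold, KLK4 2.5-fold and FKBP5 1.76-fold, while TARP rose 2.79-fold. A gene was called when limma's treat test of log2(CPM + 0.5) against a 1.5-fold change gave a Benjamini-Hochberg adjusted p under 0.05 over all 13951 genes. By that rule 2.24% of all genes were lower and 1.75% higher. Against no change at all (limma's eBayes), 8 of the 10 were lower and 1 higher, where 21.3% and 23.2% of all genes were. The median log2 fold change was -0.78 for the 10 genes and 0.01 for all genes.

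KLK2 was at 282, 285 and 295 CPM in Control and at 112, 109 and 106 CPM in LV-MEIS1. All LV-MEIS1 libraries were below all Control libraries, and the log2 fold change was -1.40 ± 0.06 (SE; treat adjusted p = 2.7e-07). KLK4, which also acts in maturing tooth enamel, was at 479, 546 and 541 CPM in Control and at 214, 194 and 217 CPM in LV-MEIS1. Its groups did not overlap either, with a log2 fold change of -1.32 ± 0.08 (adjusted p = 5.2e-06).
KLK3 had the smallest difference of the 3 kallikreins. It was at 178, 173 and 195 CPM in Control and at 107, 109 and 110 CPM in LV-MEIS1, again without overlap. Its log2 fold change of -0.74 ± 0.07 differed from no change (limma eBayes adjusted p = 1.5e-06) but not from a 1.5-fold change (treat adjusted p = 0.42).

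The KLK2 to KLK3 ratio within a library therefore shifted. It was 1.58, 1.64 and 1.51 in Control and 1.04, 1 and 0.959 in LV-MEIS1. The ratio was 1.61, 1.76 and 1.65 in HOXB13ko and 1.73, 1.62 and 1.69 in HOXB13ko-LV-MEIS1. The LV-MEIS1 libraries were the lowest of the 12, and the other three groups lay between 1.51 and 1.76. This ratio was chosen after its values were seen and was not tested.

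SLC45A3 was at 151, 178 and 150 CPM in Control and at 23.5, 21 and 23 CPM in LV-MEIS1. No library of either group came near the other, and the log2 fold change was -2.80 ± 0.07 (treat adjusted p = 2.1e-11). STEAP2 was at 524, 411 and 472 CPM in Control and at 123, 124 and 110 CPM in LV-MEIS1 (log2 fold change -1.97 ± 0.09, adjusted p = 2.2e-08).
The Control libraries spread more for STEAP2 (SD 56.8 CPM) than the LV-MEIS1 libraries did (SD 7.6 CPM), and the groups stayed far apart. FKBP5 was at 423, 412 and 409 CPM in Control and at 248, 234 and 223 CPM in LV-MEIS1 (log2 fold change -0.82 ± 0.05, adjusted p = 0.0064), also without overlap.

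PMEPA1 and ABCC4 had smaller differences that passed only the test against no change. PMEPA1 was at 309, 320 and 311 CPM in Control and at 221, 211 and 217 CPM in LV-MEIS1, with a log2 fold change of -0.54 ± 0.05 (limma eBayes adjusted p = 6.2e-07, treat 1). ABCC4 was at 23.1, 23 and 23.1 CPM in Control and at 18.5, 17 and 18.6 CPM in LV-MEIS1, with a log2 fold change of -0.35 ± 0.08 (eBayes adjusted p = 0.003, treat 1). For both genes every LV-MEIS1 library was below every Control library.
TMPRSS2 gave no detectable difference. It was at 39.5, 46.1 and 43.1 CPM in Control and at 40.5, 41.8 and 42.9 CPM in LV-MEIS1, inside the Control range. The log2 fold change was -0.04 ± 0.08 with a 95% interval of -0.21 to 0.14 (eBayes adjusted p = 0.75).

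TARP moved the other way. It was at 19.2, 22.4 and 23.8 CPM in Control and at 65.3, 56.8 and 63 CPM in LV-MEIS1, with a log2 fold change of 1.48 ± 0.17 (treat adjusted p = 0.0025). All LV-MEIS1 libraries were above all others in the series.

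**Figure D2:**
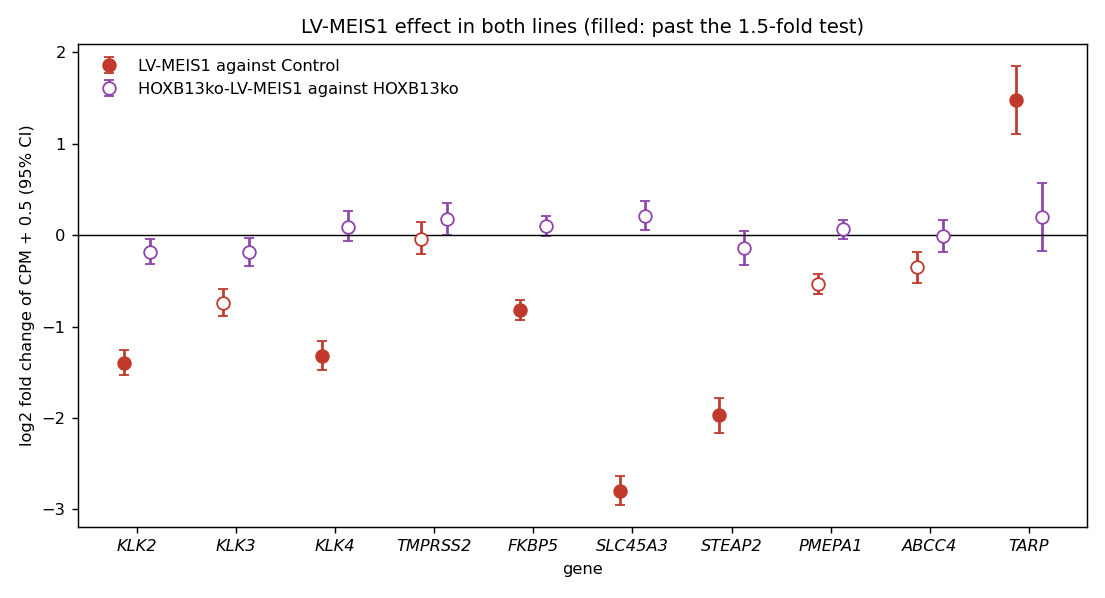
Log2 fold change of each gene with its 95% interval for LV-MEIS1 against Control (red) and HOXB13ko-LV-MEIS1 against HOXB13ko (purple), 3 libraries per group. Filled points passed the 1.5-fold test at an adjusted p under 0.05. Filled red points number 5 below 0 and 1 above, and no purple point is filled.

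In the line with HOXB13 targeted, MEIS1 gave none of these calls. Between HOXB13ko-LV-MEIS1 and HOXB13ko, 0 of the 10 genes passed limma's treat test (0.00717% of all genes did) and 0 passed eBayes (0.0502% did). The single gene past treat was MEIS1, so the lack of calls was shared by all other genes and is not particular to the 10. At an unadjusted p under 0.05, 0 passed treat and 3 passed eBayes. MEIS1 itself rose 7.46-fold in the same contrast, against 10.1-fold in the other pair.
SLC45A3 was at 167, 162 and 150 CPM in HOXB13ko and at 175, 185 and 196 CPM in HOXB13ko-LV-MEIS1. The interval of its log2 fold change, 0.06 to 0.37, lay above 0 before adjustment (eBayes adjusted p = 0.21). STEAP2 was at 455, 508 and 532 CPM without the virus and at 488, 458 and 412 CPM with it, and its interval was -0.33 to 0.05.
KLK2 was at 224, 238 and 228 CPM in HOXB13ko and at 212, 220 and 179 CPM in HOXB13ko-LV-MEIS1. Those ranges lay apart by little, with an interval of -0.32 to -0.04 (eBayes adjusted p = 0.23). KLK3 was at 139, 135 and 138 CPM and at 122, 135 and 106 CPM in the same order (interval -0.34 to -0.03, adjusted p = 0.25). KLK4 was at 449, 430 and 416 CPM and at 424, 522 and 440 CPM (interval -0.07 to 0.26).
FKBP5, PMEPA1, ABCC4 and TMPRSS2 had log2 fold changes of 0.10, 0.07, -0.01 and 0.18. The ranges of the libraries overlapped for all 4. TARP had a log2 fold change of 0.20 with an interval of -0.17 to 0.57, the widest of the 10.

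The difference of the MEIS1 effects, tested in the same model as an interaction, was called for 5 of the 10 genes. For all of them the effect was more negative in the line with intact HOXB13. SLC45A3 differed by -3.01 ± 0.10 on the log2 scale (treat adjusted p = 1e-09), STEAP2 by -1.83 ± 0.12 (7e-06), KLK4 by -1.41 ± 0.11 (9.7e-05), KLK2 by -1.22 ± 0.09 (0.00027) and FKBP5 by -0.92 ± 0.07 (0.0095). Over all genes 1.62% were called lower and 1.31% higher in this test.
PMEPA1 (-0.60 ± 0.07), KLK3 (-0.55 ± 0.10) and ABCC4 (-0.34 ± 0.11) differed from 0 by eBayes only (18% of all genes were higher and 16.2% lower by that test), and TMPRSS2 (-0.21 ± 0.12, eBayes adjusted p = 0.18) by neither test. TARP differed by 1.28 ± 0.24 (treat adjusted p = 0.16, eBayes 0.0013). Without HOXB13ko-LV-MEIS1 replicate 3, whose TARP level was the highest of its group, the TARP difference was 1.5 ± 0.2 and was called (treat adjusted p = 0.011). The 2 pairs of lines also differed in MEIS1 level and in having passed through cloning, which cannot be told apart from HOXB13 targeting here. Cas9 is described for Control, HOXB13ko and HOXB13ko-LV-MEIS1 but not for LV-MEIS1. The part of Cas9 in the contrasts with LV-MEIS1, this difference among them, was not tested. Any part of the lentiviral infection itself was not tested.

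HOXB13 targeting alone left most of these genes close to Control. One of the 10, TARP, was called lower, and 0.76% of all genes were called lower and 0.652% higher. By eBayes 4 of the 10 were lower and 3 higher, where 16.4% and 16.5% of all genes were. The Control libraries are the same as in the LV-MEIS1 contrast, so the 2 sets of fold changes are not independent.
TARP was at 1.82, 1.88 and 2.47 CPM in HOXB13ko against 19.2, 22.4 and 23.8 CPM in Control. It fell 8.75-fold, a log2 fold change of -3.13 ± 0.17 (treat adjusted p = 2.1e-07), with no overlap. These levels remained above the value of 3 reads in every library.
The 3 kallikreins had lower values, with log2 fold changes of -0.40 ± 0.07 for KLK3 (limma eBayes adjusted p = 0.00085), -0.32 ± 0.06 for KLK2 (0.002) and -0.27 ± 0.08 for KLK4 (0.015). TMPRSS2 was at 54.6, 57.2 and 55.4 CPM in HOXB13ko, above each Control library (log2 fold change 0.37 ± 0.08, adjusted p = 0.0039). FKBP5, at 492, 496 and 528 CPM (0.28 ± 0.05, adjusted p = 0.00086), and ABCC4, at 27.1, 27.4 and 31.5 CPM (0.30 ± 0.08, adjusted p = 0.012), were also above each Control library.
None of these 6 differences passed the 1.5-fold test. SLC45A3 (95% interval -0.15 to 0.16), PMEPA1 (-0.10 to 0.10) and STEAP2 (-0.10 to 0.28) were not distinguishable from Control, and their intervals keep any change within 1.5-fold.

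**Figure D3:**
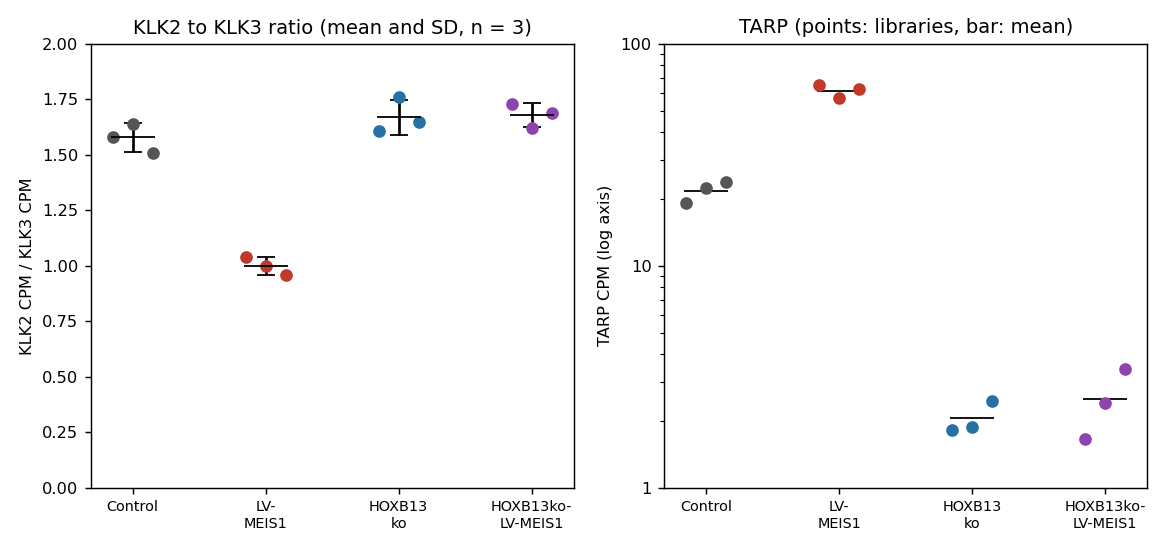
Left, the ratio of KLK2 CPM to KLK3 CPM in each library with the group mean and SD (n = 3). Right, TARP CPM on a log axis with the group mean as a bar. The ratio lies near 1 in LV-MEIS1 and between 1.51 and 1.76 elsewhere, and TARP spans 1.66 to 65.3 CPM over the 12 libraries.

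Between the lines that both carried MEIS1, 5 of the 10 were higher in HOXB13ko-LV-MEIS1 than in LV-MEIS1 and 1 was lower (3.29% of all genes were called higher and 3.42% lower). By eBayes 8 were higher and 1 lower, where 24% and 26.1% of all genes were. SLC45A3 was 8.09-fold higher (log2 fold change 3.02 ± 0.07, treat adjusted p = 2.3e-12), STEAP2 3.79-fold, FKBP5 2.3-fold, KLK4 2.21-fold and KLK2 1.86-fold.
TARP was 21.3-fold lower, at 1.66, 2.41 and 3.44 CPM against 65.3, 56.8 and 63 CPM (log2 fold change -4.41 ± 0.17, adjusted p = 3.1e-10). KLK3 was the one gene that passed neither test, with a log2 fold change of 0.15 ± 0.07 (interval 0 to 0.30, eBayes adjusted p = 0.097). Its HOXB13ko-LV-MEIS1 range of 106 to 135 CPM overlapped the LV-MEIS1 range of 107 to 110 CPM.

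The order of the 4 groups thus took several forms. For SLC45A3, STEAP2, KLK4 and PMEPA1, LV-MEIS1 stood apart as the lowest, and at least 1 pair of neighbours among the other three groups overlapped. For KLK2 the order was Control, HOXB13ko, HOXB13ko-LV-MEIS1 and LV-MEIS1 with every neighbouring pair apart, while for KLK3 the last 3 of that order overlapped from neighbour to neighbour. For TMPRSS2 the HOXB13-targeted lines were the upper pair, and Control and LV-MEIS1 overlapped. FKBP5 and ABCC4 had the HOXB13-targeted lines on top, overlapping each other, then Control and then LV-MEIS1, each apart. TARP ran LV-MEIS1, Control, then the HOXB13-targeted lines, which overlapped.
Over the 12 libraries, Pearson's r of log2(CPM + 0.5) was 0.99 between SLC45A3 and PMEPA1, 0.98 between SLC45A3 and STEAP2, 0.96 between KLK2 and KLK4 and 0.85 between KLK2 and KLK3. It was -0.21 between KLK3 and TMPRSS2 and -0.93 between TARP and ABCC4. These coefficients describe 4 groups of libraries, not 12 independent points.
Likeness was computed against 13892 other genes that averaged 1 CPM or more, and the ones most like KLK2 were PGGHG (r = 0.992), PLA2G4F (0.984) and PSD (0.983). Those most like KLK3 were AP3B2 (0.955), HAPLN2 (0.954) and DOCK4 (0.95), and those most like TMPRSS2 were ZNF609 (0.973), GTSE1 (0.971) and PDIA3 (0.954). AUTS2 (0.995), IGF1 (0.993) and S100A10 (0.992) were most like TARP. For the remaining members the closest gene was VCX3A for KLK4 (0.989), MAP4K4 for FKBP5 (0.996), PXN for both SLC45A3 (0.998) and PMEPA1 (0.994), DSEL for STEAP2 (0.993) and GLCE for ABCC4 (0.989).

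The genes listed around the members varied in how far they shared the change. Of the 11 genes listed within 500 kb of SLC45A3 the log2 fold changes in LV-MEIS1 ran from -0.55 to 0.20 with a median of 0.01, beside -2.80 for SLC45A3 itself. The 12 around FKBP5 had a median of 0.03, the 22 around KLK2 one of -0.09, with 2 further members among them, and the 3 around TARP one of 0.51. All 3 genes around PMEPA1 had negative log2 fold changes in LV-MEIS1 (-1.51 to -0.15, median -0.35, beside -0.54 for PMEPA1). They include NKILA, which overlaps PMEPA1 on the opposite strand (7.23 to 7.51 CPM in Control, 1.99 to 2.74 in LV-MEIS1). All 5 around ABCC4 had positive log2 fold changes in HOXB13ko (0.13 to 0.76, median 0.37, beside 0.30 for ABCC4). All 6 around STEAP2 had positive log2 fold changes in HOXB13ko as well (0.16 to 0.51, median 0.34), beside 0.09 for STEAP2. Whether neighbouring genes shared a direction more than other genes do was not tested. In LV-MEIS1 the 6 genes around STEAP2 ran from -2.55 to 0.54, and the lowest was STEAP1, its paralog and a cell surface antigen of prostate cancer. STEAP1 was at 156 to 166 CPM in Control, 25.8 to 29.5 in LV-MEIS1, 183 to 195 in HOXB13ko and 185 to 208 in HOXB13ko-LV-MEIS1 (log2 fold change in LV-MEIS1 -2.55 ± 0.06, treat adjusted p = 1.2e-11).
STEAP3 was the other listed STEAP gene, and it was not called (15.5 to 17.4 CPM in LV-MEIS1, 17.4 to 20.4 in Control).
Of 13 other kallikrein genes, 4 were listed, and 1 of them, the pseudogene KLKP1, fell in LV-MEIS1 (12.2, 12 and 14 CPM in Control against 3.82, 3.28 and 4.92, log2 fold change -1.56 ± 0.12, treat adjusted p = 4.2e-05). Its difference of the MEIS1 effects was called as well (-1.24 ± 0.17, adjusted p = 0.036). KLK1, KLK10 and KLK15 were not called by treat, and by eBayes KLK1 (-0.33 ± 0.07, adjusted p = 0.0026) and KLK15 (-0.51 ± 0.18, adjusted p = 0.036) were lower. KLK15 was low throughout, with means of 3.68 CPM in Control and 2.38 CPM in LV-MEIS1. Over all genes 2.24% were lower by treat and 21.3% by eBayes in this contrast. Of 14 other genes of the TMPRSS family 4 were listed and 0 were called by treat. By eBayes 3 were lower in LV-MEIS1, where 21.3% of all genes were.

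Genes beyond the 10 showed that the fall in LV-MEIS1 was not shared by all androgen-induced genes. Of 28 others on a list of such genes 22 were listed. In LV-MEIS1 2 fell and 1 rose by treat, where 2.24% and 1.75% of all genes did. By eBayes 7 were lower and 5 higher, where 21.3% and 23.2% of all genes were. The median log2 fold change of the 22 was -0.05, beside -0.78 for the 10.
NDRG1, a stress-responsive gene of differentiated epithelium, was at 50.2, 56.4 and 54.5 CPM in Control and at 13.1, 11.9 and 13.6 in LV-MEIS1 (log2 fold change -2.02 ± 0.08, treat adjusted p = 3.8e-09). PLPP1, a lipid phosphatase, fell from 177 ± 8.52 CPM to 48.2 ± 3.36 CPM (SD, n = 3; log2 fold change -1.86 ± 0.06, adjusted p = 1.2e-09).
Both were also called lower in the difference of the MEIS1 effects, NDRG1 at -2.26 and PLPP1 at -1.88. PTGER4, a prostaglandin E receptor, rose from 2.82 ± 0.348 CPM to 6.71 ± 0.712 CPM (log2 fold change 1.12 ± 0.15, adjusted p = 0.042). RAB3B, a vesicle GTPase, was not called in LV-MEIS1 (0.84 ± 0.09, treat adjusted p = 0.14), was called higher in the difference (1.04 ± 0.13, adjusted p = 0.047) and was lower in HOXB13ko-LV-MEIS1 than in LV-MEIS1 (-1.02 ± 0.09, adjusted p = 0.0026).
In HOXB13ko, NDRG1 alone of the 22 was called, and it rose 2.04-fold to 107 to 115 CPM (log2 fold change 1.03 ± 0.08, treat adjusted p = 0.0036). Over all genes 0.652% were called higher in that contrast. Between the MEIS1-carrying lines EAF2, an elongation factor partner, was higher in HOXB13ko-LV-MEIS1 as well (1.38 ± 0.14, adjusted p = 0.00058), beside NDRG1 and PLPP1.

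**Figure D4:**
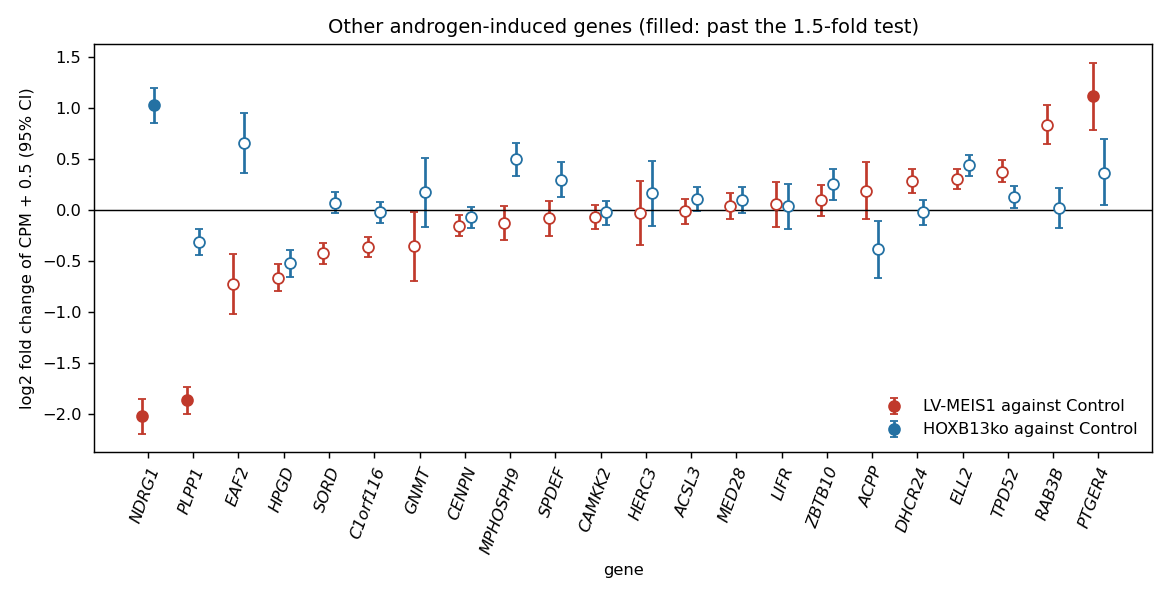
Log2 fold change with its 95% interval of the 22 listed androgen-induced genes outside the 10, for LV-MEIS1 (red) and HOXB13ko (blue) against the same 3 Control libraries, ordered by the LV-MEIS1 value. Filled points passed the 1.5-fold test. NDRG1 lies at -2.02 and PLPP1 at -1.86 in LV-MEIS1, and most of the others lie within 0.5 of 0.

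Of 5 genes known to be repressed by androgen 4 were listed. In LV-MEIS1 3 were higher and 1 lower by eBayes (23.2% and 21.3% of all genes were), with a median log2 fold change of 0.86. In HOXB13ko against Control 3 were higher and 0 lower by eBayes (16.5% and 16.4% of all genes were), with a median of 0.39. By treat 0 were called in that contrast. In LV-MEIS1 UGT2B15, which glucuronidates androgens, rose from 6.74 ± 1.87 CPM to 22.4 ± 2.66 CPM (log2 fold change 1.69 ± 0.20, treat adjusted p = 0.0013). DDC, an amino acid decarboxylase, fell from 6.79 ± 0.502 CPM to 1.84 ± 0.291 CPM (-1.64 ± 0.11, adjusted p = 6.8e-06). UGT2B17 (1.24 ± 0.20, eBayes adjusted p = 0.00022, treat 0.071) and CITED2 (0.48 ± 0.06, eBayes 2.9e-05, treat 1) were higher by eBayes only. UGT2B15 and UGT2B17 are near-identical copies, so their shares of reads are uncertain.

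Cofactors of androgen signalling had no difference past the 1.5-fold test. All 10 genes of the list were listed, and 0 were called by treat in any of the 5 comparisons. In LV-MEIS1 against Control, 3 were higher and 1 lower by eBayes (23.2% and 21.3% of all genes were), and in HOXB13ko against Control 2 were higher and 5 lower (16.5% and 16.4% of all genes were).
FOXA1, a pioneer factor that opens chromatin, was at 387, 395 and 376 CPM in Control and at 517, 494 and 511 CPM in LV-MEIS1 (0.39 ± 0.05, eBayes adjusted p = 2e-05), above every Control library. GATA2, another pioneer factor, was at 261 to 299 CPM in Control and 203 to 221 CPM in HOXB13ko (-0.39 ± 0.06, adjusted p = 0.00047).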

How the data were processed

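RNA-seq was made from CWR22Rv1 cells as 12 libraries in 4 groups of 3 with a stranded mRNA kit and single-end reads. The authors trimmed reads (Trimmomatic 0.38), quantified transcripts with kallisto 0.43.1 on a GRCh38 Ensembl transcriptome without use of strand, dropped low genes and normalised with edgeR 3.22.2. The deposited values are CPM per gene, 1 column per library. Tool versions are from the submitters' processing notes.

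Rows were joined by symbol, 42 repeated rows of 13993 were set aside and 13951 genes were tested. Whole reads could not be recovered, since 48.0 to 63.8% of low values fell on a common step, so no count model was run. Values were tested as log2(CPM + 0.5) with limma 3.58.1 in R 4.3.3, in a single model of the 4 groups with a trended variance, by treat against a 1.5-fold change and by eBayes against none, with Benjamini-Hochberg adjustment over all genes. Fold changes are on that scale and understate those of low genes. The script was tested on simulated data. The sources do not say that replicates were separate cultures, so p-values may measure technical spread alone. Same-numbered libraries did not deviate together (18 pairs, r -0.21 to 0.15), so they were not paired.

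The 10 genes and all lists were chosen with earlier results of these data known. All 10 are reported, and some genes of the other lists are not reported here. From other lists, genes passing treat are named, at most 6 of the largest per list; FOXA1, GATA2, markers, overlapping genes and genes given as not called were named outside that rule, as was the KLK2 to KLK3 ratio. Likeness is Pearson's r over 12 libraries. Positions and transcripts are GENCODE 44 (97.9% of listed genes matched), not necessarily the authors' release. Promoters are from RefSeq GRCh38.p14, with 8 of 10 genes matched. Intervals cover 95%.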

Additional observations from a re-analysis of the deposited data

Results flagged for a closer look

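Of the 10 genes, 5 differed between the lines in their response to MEIS1, by a test of the difference itself (limma's treat on the interaction, adjusted over 13951 genes, of which 1.62% were called lower and 1.31% higher). The LV-MEIS1 effect in the line with intact HOXB13, less the effect in the line labelled HOXB13ko, was -1.22 on the log2 scale for KLK2, -1.41 for KLK4, -0.92 for FKBP5, -3.01 for SLC45A3 and -1.83 for STEAP2. The 3 libraries of LV-MEIS1 lay below the 3 of Control for all 5 genes. MEIS1 reached 47.4 CPM on average in LV-MEIS1 and 29.7 CPM in HOXB13ko-LV-MEIS1, and the part of that gap in the differences was not tested. Nor was the part of Cas9, which is described for every group but LV-MEIS1.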

How the results depend on the processing

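Of 1090 log2 fold changes of the 10 genes recomputed under the alternatives (pseudocount 0.1 or 1, a minimum mean of 1 CPM, equal-sum, median-of-ratios and quantile scaling, a replicate block, eBayes, eBayes with the fold threshold applied afterwards, a fit of the compared groups alone, and each library left out), 1067 stayed on the same side of the threshold and 23 became called. No called value lost its call or reversed, and 15 of the 1067, all uncalled, changed sign. Both eBayes rules, the minimum mean, the replicate block and the fit of the compared groups could change a call but not a fold change. The same holds for a left-out library outside the contrast. With eBayes against no change, 7 genes were called in HOXB13ko against Control in place of 1 (4590 of all 13951 genes), and 9 in the difference of the MEIS1 effects in place of 5 (4771 of all genes), because that test asks for no minimum fold. With 1 library left out the called genes numbered 6 to 6 for LV-MEIS1 against Control, 1 to 1 for HOXB13ko against Control, 0 to 0 for HOXB13ko-LV-MEIS1 against HOXB13ko, 6 to 6 for HOXB13ko-LV-MEIS1 against LV-MEIS1 and 5 to 6 for the difference, where TARP joined without HOXB13ko-LV-MEIS1 replicate 3. With the replicate block the counts were 6, 1, 0, 6 and 5 in the same order, as without it. Replicate numbers did not pair the libraries, since 2 of 18 same-number pairs had a deviation correlation over 0.1 and 0 of 12 libraries correlated best with its own number. The difference could not be fitted on the compared groups alone, since it uses all 4. Under another scaling the all-gene median shifted by no more than 0.039 (log2). At 17100000 to 28600000 reads per library, all 10 genes were well above 3 reads.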
